A study of Mus musculus with 28 samples.

Results

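The control siRNA labelled SCR was compared with 5 targeting siRNAs, to ask which genes follow the control itself rather than the siRNAs it is meant to be a baseline for. The comparison held 18 of the series' 28 RNA-seq libraries: 4 with SCR and 14 with a targeting siRNA, all from the same 4 clones and without an mCherry construct, with the clone as a block. Every library came from mouse embryonic fibroblasts of strain C57BL/6x129Sv transformed with RAS and DNP53. In clones 12 and 14 cyclin D1 carried the tag that the labels call Ctag, and in clones 18 and 25 it was untagged. Each tagged clone gave 1 library with SCR, with FLAG and HA siRNA (aimed at the epitope tags) and with Qiagen, Nature and Life siRNA (aimed at cyclin D1 itself). The untagged clones had only SCR and the tag siRNAs, 1 library of each per clone, and there the tag siRNAs had no tag to act on. A further 2 libraries, untreated cells of clones 12 and 14, served as a check. The labels give them no treatment, and only 1 of them, clone 12, has a date in its label. Transfection, siRNA and handling cannot be told apart in that check. Every line is a clone, so differences between clones are also differences between lines.

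An siRNA is a short RNA duplex, one strand of which guides an Argonaute protein to messages it pairs with. Near-complete pairing leads to cleavage of the message, whereas pairing of a few bases near the 5′ end of the guide with a 3′ untranslated region (3′ UTR) can lower other messages in the way a microRNA does. A control siRNA is chosen to have no intended target. The sequences of the siRNAs were not used here.

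Total counts ran from 26558256 to 81512769 per library. Fibroblast markers summed to between 5530 and 12700 CPM (counts scaled to a common library size) in all 20 libraries, and epithelial markers, among them keratins, to between 120 and 3700 CPM. Macrophage markers summed to at most 4.62 CPM and endothelial markers to at most 2 CPM, with Lyz2 and Tyrobp at 0 throughout. Of the 20, SCR in clone 12 was sequenced deepest yet detected the smallest number of genes, 14132. It lacked any count for 286 genes that should have had 10 or more going by the rest of clone 12; elsewhere such genes numbered 19 or fewer. In bulk libraries, fewer cells of a type and less RNA per cell cannot be told apart.

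Across the 4 clones, the genes that separated SCR from the targeting siRNAs were mostly lower with SCR. edgeR's quasi-likelihood test called 211 of 14368 genes tested at a Benjamini-Hochberg adjusted p under 0.05 (1.47%), 182 of them lower with SCR (1.27%) and 29 higher (0.202%). An unadjusted p under 0.05 was found for 1870 genes. The median log2 fold change was -0.67 among the genes called lower and 0.59 among those called higher, and 28 and 5 of them differed at least 2-fold. All 182 and all 29 had the same sign in each of the 4 clones. For 164 of the 182 the SCR library lay below every targeting library of its clone in all 4 clones, which held for 2.76% of all genes tested. For 22 of the 29 it lay above them all, which held for 1.35%. The genes were called on these same libraries, so their shared sign and order follow largely from the call and are no separate support. This fit counts differences among the targeting siRNAs as spread. A fit with a coefficient for each siRNA called 1250 genes between SCR and the mean of the 5, of which 697 were higher and 553 lower, so the excess of lower calls was not found there. Against single siRNAs it called 7.73% of genes for FLAG, 10.9% for HA, 7.50% for Qiagen, 11.5% for Nature and 11.2% for Life. FLAG and HA siRNA had libraries in all 4 clones, and Qiagen, Nature and Life siRNA only in the tagged clones. These shares therefore do not rank the siRNAs. In the first fit, without the SCR library of clone 12, 14, 25 or 18, the count was 87, 101, 132 or 84.

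The labels were checked on Ccnd1, which encodes cyclin D1 (gene ID 12443, at 144929931 to 144939831 on chromosome 7 of mm10). It stood at 1136 and 1297 CPM with SCR in clones 12 and 14, against 50.8 to 325 CPM with the 5 targeting siRNAs there and 993 and 1484 CPM in untreated cells. In clones 25 and 18 it stood at 1341 and 1327 CPM with SCR and at 999 to 1291 CPM with FLAG and HA siRNA. SCR and untreated cells therefore overlapped while the targeting siRNAs lay below both in the tagged clones. Its SCR response was larger in tagged than in untagged clones (log2 difference 2.54, SE 0.26, edgeR adjusted p = 0.00924), and it was the only gene called in that test (0.00703% of 14229; 429 genes at an unadjusted p under 0.05). Leaving out SCR of clone 25 or of clone 18 ended that call, and 0 genes were then called.

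Among the genes lower with SCR, F2r, Pex6, Top1mt, Taldo1, Pls3 and Mocs2 were named because they were called in the untagged clones and, in libraries not used there, called lower with SCR than in untreated cells of the tagged clones. They have unlike functions. F2r encodes PAR1, a G protein-coupled receptor cleaved by thrombin. With SCR it stood at 65.5, 65.6, 104 and 68.9 CPM in clones 12, 14, 25 and 18. Targeting libraries of these clones held 189 to 254, 159 to 254, 313 to 319.8 and 240.2 to 263 CPM, and untreated clones 12 and 14 held 288 and 274 CPM. Each SCR library was thus well below all others of its clone, and no SCR library overlapped a targeting library of any clone. F2r was 3.24-fold lower with SCR (log2 fold change -1.70, SE 0.11, edgeR adjusted p = 7.88e-08). It was also lower with SCR than in untreated cells (-2.08, SE 0.20, adjusted p = 0.000308). The targeting siRNAs were at -0.41 from untreated cells (adjusted p = 0.0783).

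Pls3 encodes plastin 3, an actin-bundling protein. It stood at 108, 145, 165 and 157 CPM with SCR in clones 12, 14, 25 and 18, and between 254 and 432 CPM in the targeting libraries. Untreated cells of clones 12 and 14 held 222 and 404 CPM, so clone 12 was the closest to its SCR library. Against targeting siRNAs its log2 fold change was -1.36 (edgeR adjusted p = 7.88e-08, SE 0.09), and it was -1.25 against untreated cells (adjusted p = 0.00567).

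Taldo1 encodes transaldolase, an enzyme of the non-oxidative pentose phosphate pathway. It stood at 48.0, 57.8, 49.7 and 61.6 CPM with SCR in clones 12, 14, 25 and 18. Its targeting libraries ran from 95.1 to 229 CPM and untreated clones 12 and 14 held 122 and 165 CPM. The 4 SCR values were close together while the other libraries differed between clones (log2 fold change -1.55, SE 0.13, edgeR adjusted p = 1.03e-06; -1.41 against untreated cells, adjusted p = 0.00567).

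Top1mt, the topoisomerase of mitochondria, stood at 5.15, 4.56, 5.16 and 3.84 CPM with SCR in the same order, against 12.3 to 20.1 CPM in targeting libraries and 13.1 and 13.4 CPM in untreated cells. It was 3.27-fold lower with SCR (log2 fold change -1.71, SE 0.13, edgeR adjusted p = 2.93e-07; -1.42 against untreated cells, adjusted p = 0.0138). Pex6, an ATPase of peroxisome assembly, stood at 5.27, 6.85, 6.72 and 7.07 CPM with SCR, against 15.2 to 28.0 CPM in targeting libraries and 18.9 and 14.6 CPM in untreated cells. Its log2 fold change was -1.69 (SE 0.15, edgeR adjusted p = 2.83e-06; -1.44 against untreated cells, adjusted p = 0.0334).

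Mocs2, which encodes subunits of the molybdopterin synthase, stood at 17.7, 23.3, 21.5 and 16.3 CPM with SCR, against 40.9 to 58.0 CPM in targeting libraries and 41.7 and 46.1 CPM in untreated cells. SCR values again lay below every other library (log2 fold change -1.25, SE 0.10, edgeR adjusted p = 2.93e-07; -1.09 against untreated cells, adjusted p = 0.00587). Of the 6 calls against untreated cells only that of F2r remained whichever of the 14 libraries was left out. Without SCR of clone 12 the others ended, with edgeR adjusted p of 0.0843 for Pls3 and Taldo1, 0.137 for Top1mt, 0.201 for Mocs2 and 0.484 for Pex6. Without untreated clone 14 they ended as well (0.103, 0.0626, 0.103, 0.0626 and 0.115 in that order). Without untreated clone 12 they ended except for Pls3 (0.0831 for Taldo1, 0.164 for Top1mt and Mocs2, 0.216 for Pex6). Top1mt also lost its call without SCR of clone 14 (0.0717), and without the libraries of high Rn45s Top1mt and Pex6 did (0.0718 and 0.112). Pex6 kept its call in only 6 of the 14 fits. In the plot of these 6 genes by clone, untreated cells lie among or near the targeting libraries and SCR lies apart. The genes were picked for being called lower with SCR, so the place of SCR there largely follows from that choice.

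**Figure D1:**
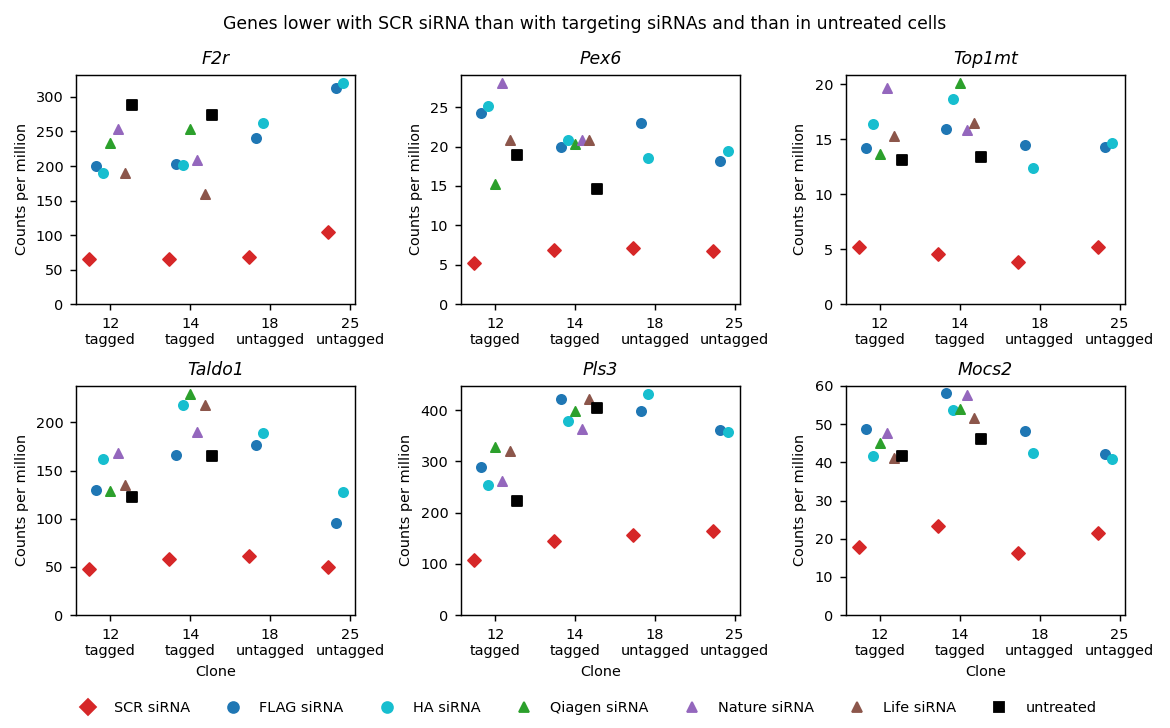
CPM (vertical axis, from 0) of 6 genes in each library, by clone (horizontal axis); red diamonds are SCR, circles tag siRNAs, triangles cyclin D1 siRNAs and black squares untreated cells, each point 1 library. The genes were picked for being called lower with SCR. In every panel and clone the SCR library is the lowest, as for F2r at 65.5 CPM in clone 12 against 189 to 254 CPM with targeting siRNAs.

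The other genes of largest fall in the 4-clone comparison were lower expressed. Among called genes averaging 1 CPM or more, Ctxn1, which encodes cortexin 1, had the largest (log2 fold change -1.93, SE 0.24, edgeR adjusted p = 0.000134), with 2.05, 2.22, 2.08 and 0.976 CPM in SCR clones 12, 14, 25 and 18 against 2.58 to 15.8 CPM in targeting libraries. Within every clone SCR was below the targeting libraries, and untreated clones 12 and 14 held 6.62 and 4.88 CPM. Pitx1, a homeobox transcription factor, was at -1.87 (SE 0.25, adjusted p = 0.000325), but clones 12 and 25 hardly expressed it (at most 0.134 CPM in any siRNA library). It was measurable in clone 14, with 4.86 CPM in SCR against 11.0 to 18.0, and in clone 18, with 16.6 CPM against 60.7 to 89.4. Oscp1 (-1.62), Cnnm2, linked to magnesium transport (-1.52), and Dnajc30, a mitochondrial co-chaperone (-1.45), were also lower in SCR than in every targeting library of all 4 clones. Hic1, a transcriptional repressor (-1.38), overlapped in clone 14. Of the 10 largest falls at this level, 8 were called whichever of the 18 libraries was left out. Dnajc30 lost its call without SCR clone 18 (adjusted p = 0.0581) and Hic1 without 3 libraries (up to adjusted p = 0.156).

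Genes higher with SCR were fewer and closer to the threshold. Cdkn1a, whose product p21 inhibits cyclin-dependent kinases, was at 57.7, 83.6, 72.6 and 67.2 CPM with SCR in clones 12, 14, 25 and 18. Targeting libraries ran from 17.1 to 31.4, 23.9 to 60.9, 21.2 to 34.7 and 17.4 to 26.0 CPM, below SCR in each clone. Untreated cells of clones 12 and 14 held 29.3 and 39.1 CPM, within the range of the targeting libraries. It was 2.44-fold higher with SCR (log2 fold change 1.28, SE 0.19, edgeR adjusted p = 0.000987), stayed called without any single library, and was at 1.05 above untreated cells, short of the threshold (unadjusted p = 0.00798, adjusted p = 0.254). The targeting siRNAs were at -0.05 from untreated cells.

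Ttc39a (log2 fold change 0.94) and Stx11, a syntaxin of immune cell secretion (0.81), had a similar order, with SCR above untreated cells by 1.11 and 0.94 on the log2 scale (adjusted p = 0.26 and 0.229). Atxn3, a deubiquitinase (0.71), and Slc7a1, a cationic amino acid transporter (0.71), had another. SCR lay within 0.08 of untreated cells for both (-0.07 and 0.02), and the targeting siRNAs were at -0.68 (adjusted p = 0.0485) and -0.73 (adjusted p = 0.0532) from untreated cells. Mdc1, a mediator of the DNA damage checkpoint (0.68), and Fancd2 of the Fanconi anaemia pathway (0.67) were of that second kind too. They were lower with the targeting siRNAs than in untreated cells (-1.06 and -1.08, edgeR adjusted p = 0.0116 and 0.0109). SCR was at -0.24 and -0.34 (edgeR adjusted p = 0.753 and 0.63). Calls against untreated cells rest on 2 untreated libraries, and leaving either out was not examined for these genes. The plot of 6 such genes shows the contrast between Cdkn1a, where SCR stands alone, and Atxn3, where SCR and untreated cells lie together. Of the 10 largest rises among called genes averaging 1 CPM or more, only Cdkn1a was called whichever library was left out.

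**Figure D2:**
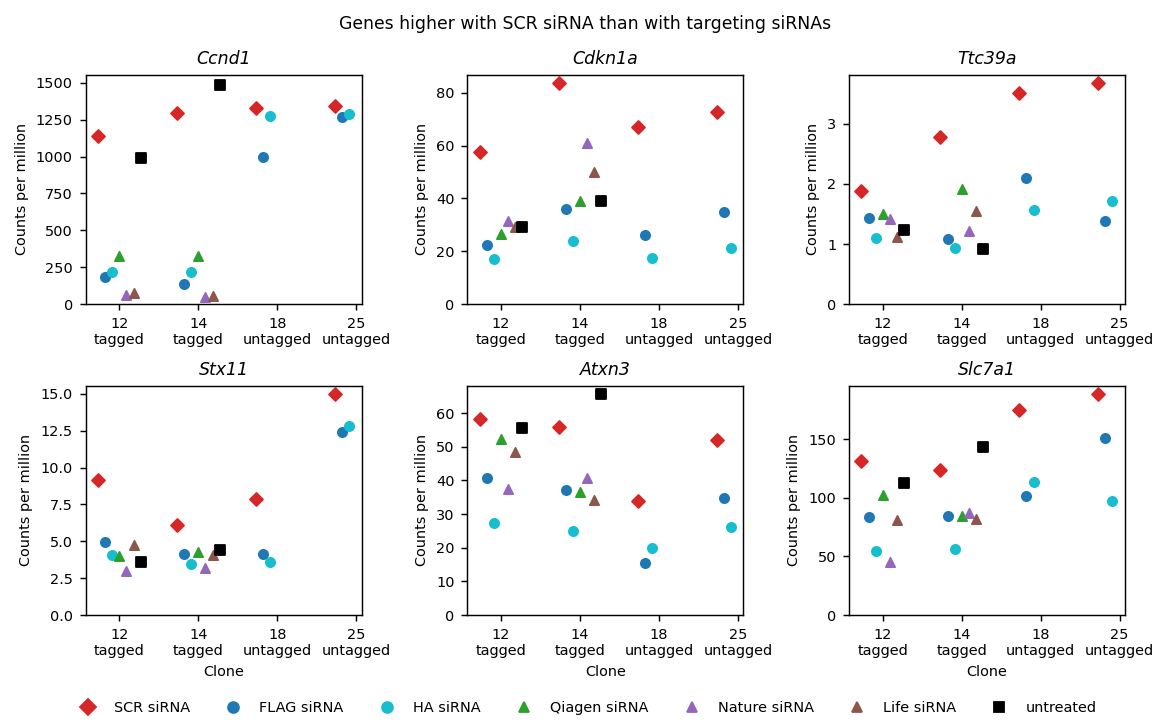
CPM (vertical axis, from 0) by clone (horizontal axis) of the 6 genes with the largest rise among those called higher with SCR at a mean of 1 CPM or more, Ccnd1 included; symbols as in the plot of lower genes, each point 1 library. Cdkn1a is highest with SCR in every clone, 57.7 CPM in clone 12 against at most 31.4 CPM with targeting siRNAs, while Atxn3 in untreated cells of clone 12 (55.7 CPM) is close to SCR (58.4 CPM).

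The untagged clones gave a comparison without loss of cyclin D1, and the tagged clones, which share no library with them, gave a separate reading of its genes. In the untagged clones SCR differed from FLAG and HA siRNA for 52 of 13784 genes (0.377%), 34 lower (0.247%) and 18 higher (0.131%), with 1477 genes at an unadjusted p under 0.05. In the same 6 libraries FLAG differed from SCR and HA for 4 genes, Plod3, Polr3g, Taf9 and Cand1, named after their values were seen (0.0290%; 803 at an unadjusted p under 0.05, 107 by DESeq2), and HA differed from SCR and FLAG for 0 genes by edgeR (730 at an unadjusted p under 0.05, 92 by DESeq2). The count for SCR fell to 0 without SCR clone 18, SCR clone 25 or HA clone 25 and was 18, 107 and 704 without FLAG clone 25, FLAG clone 18 and HA clone 18. It was 364 by DESeq2.

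All 34 lower genes were also negative for SCR against targeting siRNAs in the tagged clones, and 14 of them were called there, where 0.169% of 13574 genes were called lower and 0.00737%, Ccnd1 alone, higher. Their median log2 fold change was -1.09 in the untagged and -1.03 in the tagged clones. Against untreated cells of the tagged clones, 33 of the 34 were lower with SCR, 9 were called lower (0.116% of all genes were) and 23 were negative with an unadjusted p under 0.05, against 6.66% of all genes. Their median was -0.83 for SCR and 0.18 for the targeting siRNAs, beside 0.0099 and 0.04 over all genes tested. By median these 34 genes thus stood away from untreated cells in the SCR libraries and near them in the targeting libraries. Single genes differed: Stc1 was at -0.49 with SCR and 0.58 with the targeting siRNAs, and Fam96b at -0.51 and 0.52. The gene not lower with SCR was Junb, an AP-1 transcription factor, at 0.50 for SCR (edgeR adjusted p = 0.539). Junb was at 1.02 for the targeting siRNAs (adjusted p = 0.0349). Rab2a, a GTPase of transport between the endoplasmic reticulum and the Golgi, was the other gene called higher with the targeting siRNAs than in untreated cells (0.60, edgeR adjusted p = 0.0354), with SCR at -0.48 (adjusted p = 0.349).

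The 18 genes higher in the untagged clones did not show this. In the tagged clones 16 of the 18 were positive for SCR against targeting siRNAs and 0 were called, with a median of 0.41 against 1.07 in the untagged clones. Against untreated cells 12 of 18 were positive with SCR, 1 of them, Cdkn1a, with an unadjusted p under 0.05 (5.31% of all genes), and 0 were called by edgeR. The medians were 0.09 for SCR and -0.26 for the targeting siRNAs.

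**Figure D3:**
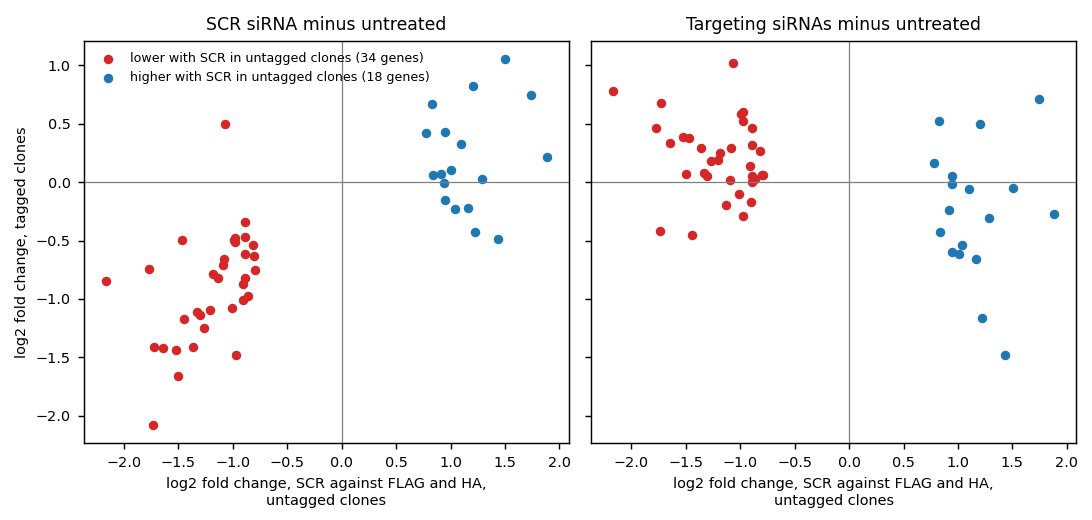
log2 fold changes of the 52 genes called between SCR and tag siRNAs in untagged clones (horizontal axis) against their log2 fold changes from untreated cells in tagged clones (vertical axis), for SCR on the left and targeting siRNAs on the right; each point is 1 gene. Of the 34 lower genes (red) 33 lie below 0 on the left, and on the right they scatter about a median of 0.18.

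Both SCR and the targeting siRNAs were also set against untreated cells over all genes. SCR and untreated cells of the tagged clones differed for 26 of 13759 genes (0.189%; 10 higher, 0.0727%, and 16 lower; 1646 at an unadjusted p under 0.05), and the targeting siRNAs and untreated cells for 1053 (7.65%; 429 higher, 3.12%, and 624 lower; 1322 higher and 1017 lower by DESeq2). The first contrast has 2 libraries on each side and the second 10 against 2, so these counts do not rank the sizes. Both rest on the untreated libraries: without untreated clone 12 or 14 the counts were 2 and 1 for SCR and 10 and 6 for the targeting siRNAs. Without the SCR library of clone 12 or 14 the count for SCR was 1 or 70, and without the 3 libraries of over 2% Rn45s, the ribosomal RNA precursor, it was 9. DESeq2 called 260, and a fit on the SCR and untreated libraries alone called 539.

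Whether the genes lower with SCR share a sequence was examined because siRNA guides can pair with 3′ UTRs. All words of 7 letters found in the 3′ UTRs of at least 100 genes (15644 words, transcript strand only) were ranked by how low their genes were in the untagged clones, over 10805 of the 11655 genes averaging 1 CPM or more (92.7% matched by symbol to the GENCODE M21 transcripts of GRCm38). The words leading in the untagged clones were TCGGAGA and, overlapping it, CGGAGAA. They were ranks 1 and 2 of 15644 also in the tagged clones against targeting siRNAs, in libraries that the ranking had not used. The genes ranked were the same in both, so these ranks are not independent of the choice. Against untreated cells with SCR the words were ranks 1455 and 302. They were found in 230 and 274 genes, either word in 433 (4.01%), and the joined word TCGGAGAA in 67 (0.620%). The words were chosen from the data after the calls were known, so they are given as a description with no test, and a match is not shown to be a site of binding. No mature mouse microRNA of 1738 in RefSeq has bases 2 to 8 that pair with the leading word.

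The matches of 7 genes follow, with 9 bases on each side where the 3′ UTR allows, to show the word in its context. These genes hold a 7-letter word in the 3′ UTR. They come from the 10 largest falls and the 6 genes also called lower than in untreated cells. Other genes called lower, such as Rab2a and Stc1, hold a word too and are not shown. Capitals mark the matched word, positions are GRCm38, and each lies within a single exon.
Ctxn1 (chr8:4258254-4258279, minus strand): tgagggcgtTCGGAGAAgtccagtcc
Pitx1 (chr13:55825795-55825820, minus strand): aaaaagacgTCGGAGAAaaatgctgg
Pitx1 (chr13:55825669-55825694, minus strand): agccagtgtTCGGAGAAgatgccgcg
Taldo1 (chr7:141402883-141402908, plus strand): ttttagtgaTCGGAGAAgggatggat
Dnajc30 (chr5:135064911-135064927, plus strand): TCGGAGAAaaggagggg
Oscp1 (chr4:126088584-126088608, plus strand): gacgacctcTCGGAGAgcatccatt
Cnnm2 (chr19:46878235-46878259, plus strand): ttcaagaatTCGGAGAcaaacttct
Mocs2 (chr13:114828401-114828425, plus strand): taacacaaaCGGAGAAtagccaagt

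Pex6 held only the 6-letter core CGGAGA shared by both words. Top1mt, F2r, Pls3 and Hic1 held none of these words in the 3′ UTR used, although F2r and Pls3 had the smallest p of the comparison. The libraries of the tagged clones were not used to choose the words. Of 21 genes called lower there with SCR than with targeting siRNAs, 10 held a 7-letter word (47.6%). Of 15 called lower than in untreated cells 6 did (40.0%), against 4.01% of all genes searched. The genes are not independent of that choice: 14 of the 34 called lower in the untagged clones were called lower in the tagged clones too. These shares are therefore a description and no separate support. The shares in the untagged clones (19 of 31, 61.3%) and over all 4 clones (44 of 171, 25.7%) include the libraries in which the words were chosen and are no support. Of the genes called higher with SCR in the 4-clone comparison, 1 of 24 held it, Hif1an, which encodes a hydroxylase acting on HIF1. Among the genes called lower in the untagged clones, the 19 with a word had a median of -1.09 in the tagged clones against targeting siRNAs and the 12 without one of -0.82. Against untreated cells the medians with SCR were -0.85 and -0.92, with 4 of 19 and 5 of 12 called lower; the difference between these groups was not tested.

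Most genes with the words were not called, but their medians were lower with SCR than that of genes without the words; differences between the classes were not tested. For SCR against targeting siRNAs in the tagged clones the median log2 fold change was -0.29 for the 67 genes with the 8-letter word, -0.09 for 163 genes with TCGGAGA alone, -0.07 for 207 with CGGAGAA alone and -0.05 for 535 with the core alone. It was -0.0061 for the 9837 genes with none of them. Of the 67 genes, 52 were negative and 6 were called. The 256 genes with the reverse complement TCTCCGA were at 0.03. Genes with a word only in the coding sequence (1822 genes) were at -0.03 and those with it only in the 5′ UTR (339 genes) at -0.01.

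Against untreated cells the 67 genes with the 8-letter word were at -0.56 with SCR and at -0.12 with the targeting siRNAs. Genes with the words have longer 3′ UTRs than all genes searched (median 2633 against 1241 bases). By median, genes with long 3′ UTRs were lower than in untreated cells both with SCR and with the targeting siRNAs. Genes of short, middle and long 3′ UTRs were read apart. In the shortest (up to 750 bases), 45 genes with a 7-letter word were at -0.32 with SCR against untreated cells and 3552 genes without at 0.15, whereas with the targeting siRNAs both were alike at 0.22 and 0.23. In the middle (751 to 1921 bases) the values were -0.28 and 0.01 with SCR, and 0.02 and 0.01 with targeting siRNAs. Among the longest 3′ UTRs they were -0.31 and -0.13 with SCR, and -0.21 and -0.19 with targeting siRNAs. With SCR, genes with a word had a lower median than genes without in each length class, with the smallest gap among the longest. Lengths still differ within a class, from 1922 to 122583 bases in the longest, and the part of length was not tested.

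**Figure D4:**
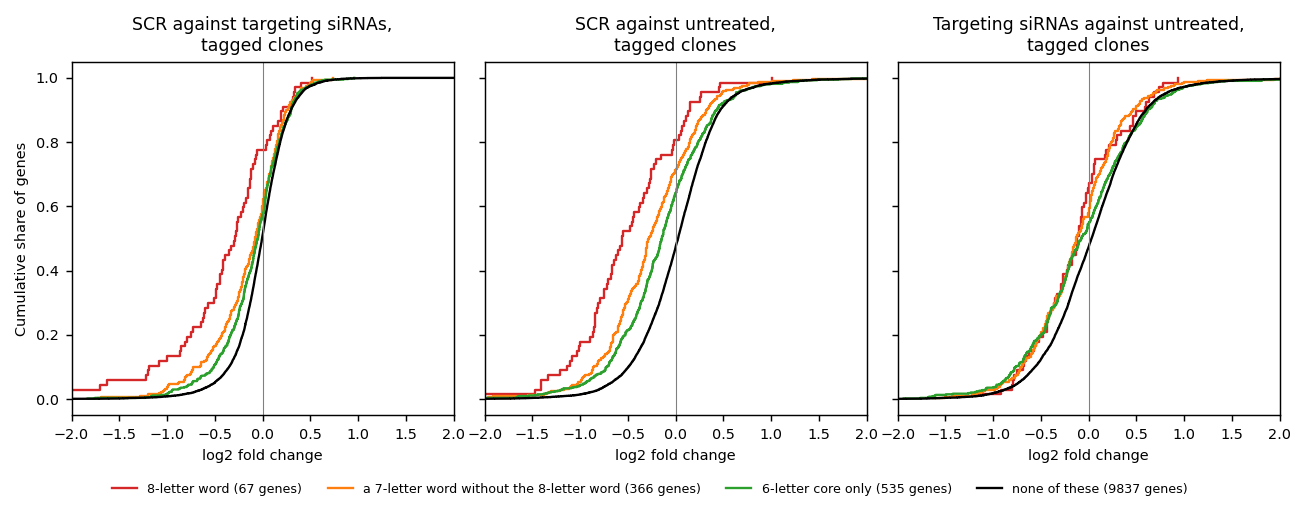
Cumulative share of genes (vertical axis) by log2 fold change (horizontal axis) in tagged clones, for genes grouped by the longest match in their 3′ UTR; the 3 panels are SCR against targeting siRNAs, SCR against untreated cells and targeting siRNAs against untreated cells. The red curve of the 67 genes with the 8-letter word lies to the left in the panels with SCR, with medians of -0.29 and -0.56, and nearer the others without SCR (-0.12).

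Each library was also set against the other libraries of its clone, as the median over the 67 genes minus the median over genes without the core. SCR was at -0.29, -0.34, -0.26 and -0.32 in clones 12, 14, 25 and 18. The 14 targeting libraries ran from -0.13 (Nature, clone 12) to 0.32 (HA, clone 18), and untreated clones 12 and 14 were at 0.12 and 0.31. Over these 67 genes SCR was the lowest library of clones 12 and 14. Their libraries were not used to choose the words, although the genes were the same. Over the 433 genes with either 7-letter word, SCR was the lowest library of clone 14 (-0.14). In clone 12 it was at -0.11 and Nature siRNA was lower, at -0.15. In clones 25 and 18 the words were chosen for being low with SCR, so its place there is given by that choice.

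A second word accompanied the genes that were higher with SCR in the untagged clones. There the word CCCGACT led the ranking of genes lower with HA siRNA than with SCR and FLAG siRNA, and it was also rank 1 among words of genes higher with SCR than with the tag siRNAs, a comparison that holds the same 6 libraries. It was found in 311 genes (2.88%). Of the 18 genes called higher with SCR in the untagged clones 11 held it (61.1%), Cdkn1a among them, and 0 of 31 called lower did; these are shares in the libraries of the choice and are no support. In the tagged clones, whose libraries the choice did not use, the same 311 genes were at -0.30 and -0.41 in the HA libraries of clones 12 and 14, and at 0.10 and 0.07 in the SCR libraries. HA was the lowest library of both these clones. In clones 25 and 18 (-0.31 and -0.15) its place is given by the choice of the word. Untreated cells lay at 0.14 and 0.17, near SCR.

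**Figure D5:**
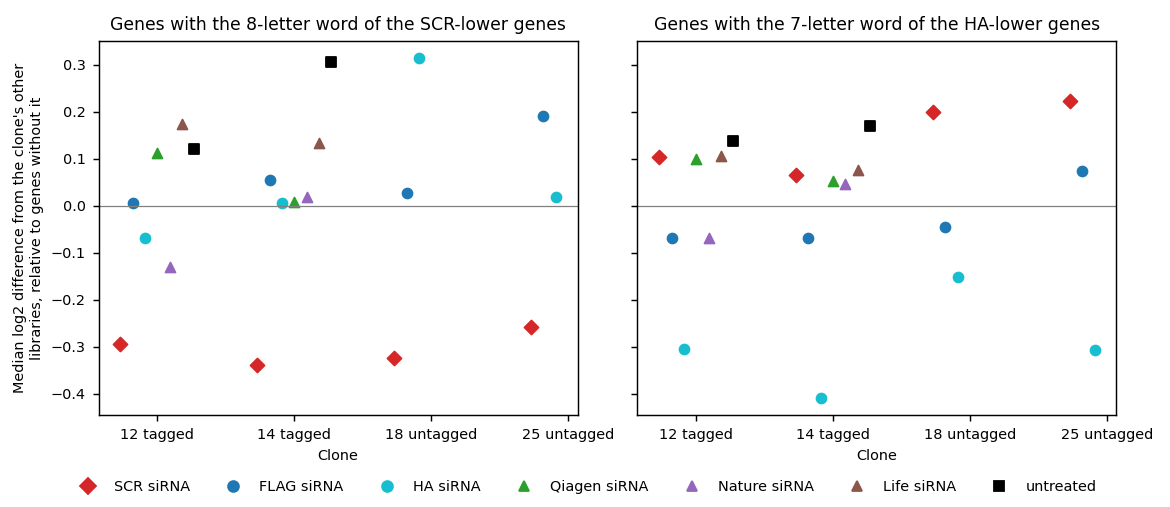
Median log2 difference of each library from the other libraries of its clone, for genes with a given 3′ UTR word minus genes without (vertical axis), by clone (horizontal axis): the 67 genes with the 8-letter word on the left and the 311 genes with the HA word on the right; each point is 1 library. In clones 12 and 14 SCR is lowest on the left (-0.29 and -0.34) and HA on the right (-0.30 and -0.41). The words were chosen in the untagged clones, over the same genes.

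No pathway among the 22 gene lists examined was mostly called. Beside its 1.47% of all genes called, the 4-clone comparison called single members of several lists, and their fellow members did not follow. Taldo1 was the 1 of 14 pentose phosphate genes tested, Pex6 the 1 of 16 peroxisome assembly factors, and F2r the 1 of 11 protease-activated receptors and ligands. Top1mt was lower and Top2a, the topoisomerase of dividing nuclei, higher (log2 fold change 0.46, edgeR adjusted p = 0.041) among 8 topoisomerases. Of 38 interferon response genes and RNA sensors 1 was called. That gene, Oas2, which senses double-stranded RNA, was at most 0.385 CPM in any library, and the list's median was -0.06 beside -0.01 over all genes. No gene of 17 in the RNA interference machinery, of 21 for lipid uptake and vesicle entry, of 24 pro-apoptotic genes and caspases or of 19 NF-kB targets was called.

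Of 22 genes of the integrated stress and unfolded protein response, 1 was called between SCR and targeting siRNAs. Against untreated cells 12 were called higher and 1 lower with the targeting siRNAs (median 0.63), where 3.12% and 4.54% of all genes were. With SCR 0 were called by edgeR (median 0.44), where 0.189% of all genes were. The contrasts differ in their number of libraries and both rest on 2 untreated libraries, so these counts do not rank the sizes. The gene called between SCR and targeting siRNAs was Hspa5, the endoplasmic reticulum chaperone BiP. It stood at 826, 1158, 1347 and 1463 CPM with SCR in clones 12, 14, 25 and 18. This was below the targeting libraries of each clone (1156 to 2363 CPM over all 4). Its log2 fold change was -0.51 (SE 0.09, edgeR adjusted p = 0.00567). Untreated cells were lower still, at 703 and 672 CPM, and both SCR (0.51, adjusted p = 0.305) and targeting siRNAs (1.06, adjusted p = 0.00711) were above them. The call against targeting siRNAs ended without SCR of clone 12, 14 or 18 (adjusted p = 0.074, 0.0511 and 0.0644). Fdps, farnesyl diphosphate synthase, was the 1 of 24 cholesterol genes called (-0.71, SE 0.13, adjusted p = 0.00443). Its call ended without SCR of clone 18 (adjusted p = 0.0541). SCR was at -0.49 from untreated cells (adjusted p = 0.36) and the targeting siRNAs at 0.19.

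Genes of DNA replication and mitosis were slightly higher with SCR, and few were called. Over all genes tested 51.8% were negative and 1.47% were called. Of 30 replication and E2F target genes, 29 were positive with a median of 0.26, and 2 rose: Uhrf1, which maintains DNA methylation (log2 fold change 0.57, edgeR adjusted p = 0.00407), and Cdc6, a licensing factor (0.59, adjusted p = 0.0453). Of 25 mitosis genes 23 were positive with a median of 0.24, and 2 rose, Top2a and Prc1, a microtubule bundler of the spindle midzone (0.49, adjusted p = 0.00736). All 4 calls ended without SCR of clone 12 (edgeR adjusted p = 0.134 for Uhrf1, 0.595 for Cdc6, 0.473 for Top2a and 0.175 for Prc1), and Cdc6 and Top2a kept theirs in only 5 and 7 of the 18 fits that left out 1 library. Against untreated cells 0 members of either list were called with SCR (medians 0.15 and -0.01), where 0.189% of all genes were. With the targeting siRNAs 4 and 10 were called lower (medians -0.24 and -0.38), where 4.54% of all genes were. In the untagged clones 0 members of either list were called, with medians of 0.14 and 0.12, where 0.377% of all genes were called. For lists of 30 and 25 genes, 0 calls are near such shares. In the tagged clones against targeting siRNAs 29 of 30 and 25 of 25 were positive, with medians of 0.35 and 0.34, where 52.8% of all genes were negative.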

How the data were processed

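The files hold 1 table of raw counts per gene, 24079 rows by 28 libraries, deposited by the authors. Per the labels' protocols, siRNAs were transfected overnight with RNAiMAX and stranded poly(A) libraries were sequenced as single reads. Per the submitters' processing notes, TopHat2 2.0.13, Bowtie2 2.2.3 and HTSeq 0.6.1p1 were used with mm10. Annotation and strand setting: not given in the sources used here. Of the rows, 22 had no gene ID (at most 0.0137% of a library's counts) and were left out.

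Counts were tested with edgeR 4.0.16 in R 4.3.3 (robust quasi-likelihood test, TMM scaling, filterByExpr, clone as block, Benjamini-Hochberg adjusted p under 0.05); DESeq2 1.42.0 was an alternative. Clones 12, 14, 25 and 18 are lines, so libraries of 1 clone are paired by line; the lowest correlation of their deviations was 0.853 in tagged and 0.876 in untagged clones. Each siRNA gave 1 library per clone, the titles carry an n of unstated meaning, and p-values measure only the spread between these libraries. No pair of libraries agreed within sampling noise. CPM, counts scaled to TMM-adjusted library size, are given for display.

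Named genes were the 10 largest called changes per direction whose mean reached 1 CPM and whose sign was shared by the 4 clones, up to 6 per direction called in untagged clones and against untreated cells, the list members with the smallest p (up to 3 a list), and Ccnd1. The members and gene lists were chosen with earlier results of these data known. Stc1, Fam96b and Rab2a fell under none of these rules and were named after their values were seen. The word search was added after the calls were seen. Scripts were tested on simulated data.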

Additional observations from a re-analysis of the deposited data

Results flagged for a closer look

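In groups of 4 SCR values, 1 clone stood apart from the other 3 for 3 named genes: Hic1 in clone 14 (SCR minus targeting siRNAs -0.60 on the log2 scale), Pex6 in clone 12 (-2.07) and Pls3 in clone 25 (-1.12). The SCR library of clone 12 stood apart in its total count (81512769) and in its genes at 0 with at least 10 counts predicted (286). For FLAG siRNA the clone 12 library stood apart in the latter with 2 genes. In all, 6 of 38 groups of 4 had a value apart. The groups share libraries and the genes were picked on those libraries, so no rate by chance can be set beside this count. The part of these libraries in the results was not tested beyond leaving each out. Ccnd1 differed between clone types, its SCR response being higher by 2.54 (log2) in tagged than in untagged clones by the interaction term.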

How the results depend on the processing

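No named gene changed sign where it was called in either fit, while values that were not called could cross 0. The balance of calls did turn in some fits. In 4 clones 29 genes were higher and 182 lower as reported, and 697 and 553 with a coefficient for each siRNA. For targeting siRNAs against untreated cells 429 were higher and 624 lower as reported, and 1322 and 1017 by DESeq2. For SCR against targeting siRNAs in 4 clones, RLE scaling (212 calls), no filter (182), a filter at 1 CPM (217), a non-robust fit (213) and leaving out the libraries of high Rn45s (191) stayed within 1.5 times of 211. Without the replicate block the counts were 40 (0 higher, 40 lower) in 4 clones, 0 in untagged clones (297 genes at an unadjusted p under 0.05), 8 in tagged clones, 2 for SCR and 1 for targeting siRNAs against untreated cells, 0 for the difference between clone types and 0 for FLAG against SCR and HA. With DESeq2 they were 535 (103 higher, 432 lower), 364, 181, 260, 2339, 2 and 107 in the same order, and 92 for HA against SCR and FLAG. With FLAG and HA siRNA only, the 4-clone comparison called 1417 genes (523 higher, 894 lower), and with a coefficient per siRNA 1250. No filter gave 364 in untagged clones and 2 for the difference between clone types. SCR and untreated libraries alone gave 539, and leaving out high Rn45s gave 9. Leaving out 1 library gave 84 to 265 calls in 4 clones, 0 to 704 in untagged clones, 0 (without SCR clone 12) to 99 (without SCR clone 14) in tagged clones, 1 to 70 for SCR and 6 to 2170 for targeting siRNAs against untreated cells, 0 to 6 for the difference between clone types, 0 to 16 for FLAG and 0 to 38 for HA. The cause of these changes was not tested. Genes with the 8-letter word minus genes without the core ranged, over single libraries left out, from -0.32 to -0.25 in 4 clones, -0.38 to -0.23 in untagged and -0.33 to -0.25 in tagged clones, and from -0.68 to -0.43 for SCR and -0.20 to -0.0585 for targeting siRNAs against untreated cells. Genes with a 7-letter word minus genes without were at -0.11 in 4 clones and at -0.0687 without the genes called there, an alternative chosen after seeing the data. With 1 SCR library per clone, calls near the threshold cannot be resolved at this number of libraries.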
